A study of Homo sapiens with 6 samples.

Results

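The SERPINB genes encode the intracellular clade of serpins, and 10 of them had a row among the 12499 genes of the deposited count table: SERPINB1, SERPINB2, SERPINB3, SERPINB4, SERPINB5, SERPINB6, SERPINB7, SERPINB8, SERPINB10 and SERPINB13. Within the family they were chosen by symbol alone, as every row named SERPINB followed by a number. The family itself was picked with earlier results of these data known, among them the strong differences of SERPINB3 and SERPINB4. SERPINB9, SERPINB11 and SERPINB12, the other SERPINB genes in the annotation, were not analyzed here. The libraries come from HaCaT cells, an immortalized line of human keratinocytes. The cells were infected for 48 hours with LV-ATF7, a lentivirus carrying human ATF7, or with the control lentivirus LV-NC, and all were cultured in high glucose (HG, 25 mM) for 24 hours. There were 3 libraries per label, and no source states that they were separate cultures, so the p-values measure only the spread between these libraries. Each infected population stands for a single cell line, and the promoter driving ATF7 is not given in the sources used here.

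A serpin inhibits its target protease by offering a reactive center loop as bait. When the protease cleaves the loop, the serpin refolds and traps the enzyme in a covalent complex. Most clade B members lack a classical secretion signal and act inside the cell, where they are thought to guard the cytoplasm against leaked or delivered proteases. In stratified epithelia such as the epidermis several of them are abundant, and SERPINB3 and SERPINB4, formerly the squamous cell carcinoma antigens, are raised in inflamed skin such as psoriasis and atopic dermatitis.

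Total counts ran from 16686472 to 20562768 per library. ATF7, which encodes a transcription factor of the CREB/ATF family, was read in CPM, the count scaled by library total and TMM factor. It stood at 50.6, 46.4 and 52.2 CPM with the LV-NC label, and at 21.9, 25.7 and 28.0 CPM with the LV-ATF7 label. It was thus lower where the label names overexpression (log2 fold change -0.98 ± 0.12 SE, adjusted p = 1.89e-04 by edgeR's quasi-likelihood test, n = 3 per label), so every direction given here is between libraries as labeled. Were the labels exchanged, every direction would turn, which was not tested. Whether the counted reads include the vector's own transcript is not stated. Of the 12462 genes tested, 67.6% differed between the labels at an adjusted p under 0.05, 34.7% higher and 32.9% lower in the LV-ATF7-labeled libraries. Keratinocyte markers had rows for 11 of 12 genes, with KRT1 not in the table, and summed to 1483 to 2101 CPM under the LV-NC label and 7040 to 7713 CPM under the LV-ATF7 label. Of these, 6 were higher and 3 lower, where 34.7% of all genes tested were higher and 32.9% lower. KRT5 held much of the sum under the LV-ATF7 label only, at 3224, 3215 and 3622 CPM. Under the LV-NC label it was at 99.96, 355 and 344 CPM. Markers of simple epithelium, all 5 with rows, summed to 1252 to 2818 against 7150 to 8078 CPM. Markers of other cell types summed to 33.1 to 42.7 against 17.3 to 21.7 CPM for fibroblasts (2 of 6 with rows), to 5.57 to 8.13 against 9.38 to 12.7 CPM for monocytes or macrophages (3 of 7), to 1.12 to 5.50 against 84.6 to 89.9 CPM for endothelium (2 of 3) and to 1.87 to 2.20 against 3.42 to 6.03 CPM for melanocytes (1 of 4). PTPRC, PECAM1 and MLANA had no row. LV-NC replicate 1 stood apart from its 2 partners, with 0.375 CPM of KRT14 where they had 12.5 and 11.3 CPM and the LV-ATF7-labeled libraries 1.45, 1.38 and 1.82 CPM. The part of these differences in the results on SERPINB genes was not tested, and in bulk RNA fewer cells of a type and less RNA per cell cannot be told apart.

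SERPINB3 and SERPINB4 were almost absent under the LV-NC label and present in every LV-ATF7-labeled library. SERPINB3, an inhibitor of cysteine cathepsins, had 0, 1 and 0 counts in LV-NC replicates 1, 2 and 3 and 244, 235 and 268 counts in LV-ATF7 replicates 1, 2 and 3. SERPINB4, its neighbor and near copy, which inhibits serine proteases such as cathepsin G and mast cell chymase, had 3, 2 and 1 counts against 772, 681 and 629 counts. In both genes the lowest LV-ATF7-labeled library lay far above the highest LV-NC-labeled one. Scaled by library, SERPINB3 averaged 13.5 ± 1.43 CPM (SD, n = 3) under the LV-ATF7 label, which is 82.2 times the level that 3 counts in each LV-NC-labeled library would give. SERPINB4 averaged 37.5 ± 4.82 CPM (SD, n = 3), or 229 times that level. The ratio of the summed counts between labels was 739 for SERPINB3 (1 against 747 counts, exact 95% interval 132 to 29232) and 343 for SERPINB4 (6 against 2082 counts, interval 157 to 937), where the intervals cover counting error only. These 2 genes were known to differ strongly when the family was picked, so their differences are given as a description with no test.

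The likeness of the 2 genes bears on how their reads can be told apart. Their coding sequences are both 1173 bases long in GENCODE release 29 and are 95.2% identical, differing at 56 bases. Of all 50-base stretches of the SERPINB3 transcript, 23.9% also occur unchanged in a SERPINB4 transcript, against 3.40% of 100-base stretches and 0% of 150-base stretches. The read length and the handling of reads with several matches are not given in the sources used here, so the split between the 2 genes is less certain than their sum. SERPINB4 made up 76.0% of the joint counts in LV-ATF7 replicate 1 (Wilson 95% interval 73.3 to 78.5), 74.3% in replicate 2 (71.4 to 77.1) and 70.1% in replicate 3 (67.0 to 73.0). Summed, the 2 genes had 3, 3 and 1 counts against 1016, 916 and 897 counts. Of the SERPINB3 exon bases, 34.9% also lie within SERPINB11 on the opposite strand, and the strandedness of the counting is not stated. The 60-base coding stretch where the 2 genes differ most, at 10 bases (coding bases 952 to 1011, in exon 8 of 8), is shown because reads across it can be assigned to 1 gene. Bases that differ are in capitals, and the sequences are from GENCODE release 29 transcripts on GRCh38, read along the minus strand.
SERPINB3, chr18:63655819-63655878: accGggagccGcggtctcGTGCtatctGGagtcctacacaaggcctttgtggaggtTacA
SERPINB4, chr18:63637881-63637940: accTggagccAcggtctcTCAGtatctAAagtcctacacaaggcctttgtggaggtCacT

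The promoters of SERPINB3 and SERPINB4 also differ at few bases. In RefSeq's windows of 250 bases before and 50 bases after the transcription start (GRCh38.p14), they differ at 4 of 300 bases, 3 of them upstream of the start. The upstream 250 bases are shown to set the differing bases side by side, 5′ to 3′ along the minus strand, with those bases in capitals. The part of these sequences in the levels of SERPINB3 and SERPINB4 was not tested.
SERPINB3, chr18:63661894-63662143: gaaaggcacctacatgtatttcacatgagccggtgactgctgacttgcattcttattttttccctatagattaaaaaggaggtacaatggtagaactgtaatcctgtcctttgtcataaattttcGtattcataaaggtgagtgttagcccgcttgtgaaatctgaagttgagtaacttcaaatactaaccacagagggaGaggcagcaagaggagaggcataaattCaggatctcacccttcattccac
SERPINB4, chr18:63644257-63644506: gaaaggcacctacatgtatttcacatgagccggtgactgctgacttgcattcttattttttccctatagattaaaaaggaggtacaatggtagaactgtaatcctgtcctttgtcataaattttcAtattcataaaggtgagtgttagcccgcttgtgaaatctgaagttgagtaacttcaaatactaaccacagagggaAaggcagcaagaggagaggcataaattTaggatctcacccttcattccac

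The other 8 members were tested in the fit across all genes, and 7 of them passed, 5 higher and 2 lower in the LV-ATF7-labeled libraries, beside the 67.6% of all genes that passed. Of the 10 members, 9 had groups whose CPM did not overlap, beside 72.7% of all genes tested. SERPINB10 entered the fit only through the LV-ATF7-labeled libraries, as did SERPINB3 and SERPINB4, and of the 7 members left without these 3, 6 had groups that did not overlap. Without SERPINB10, 6 of 7 tested members passed, and without LV-NC replicate 1 the count was again 7 of 8, where 80.1% of all genes passed. The genes are described here by the proteases they are known to act on.

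**Figure D1:**
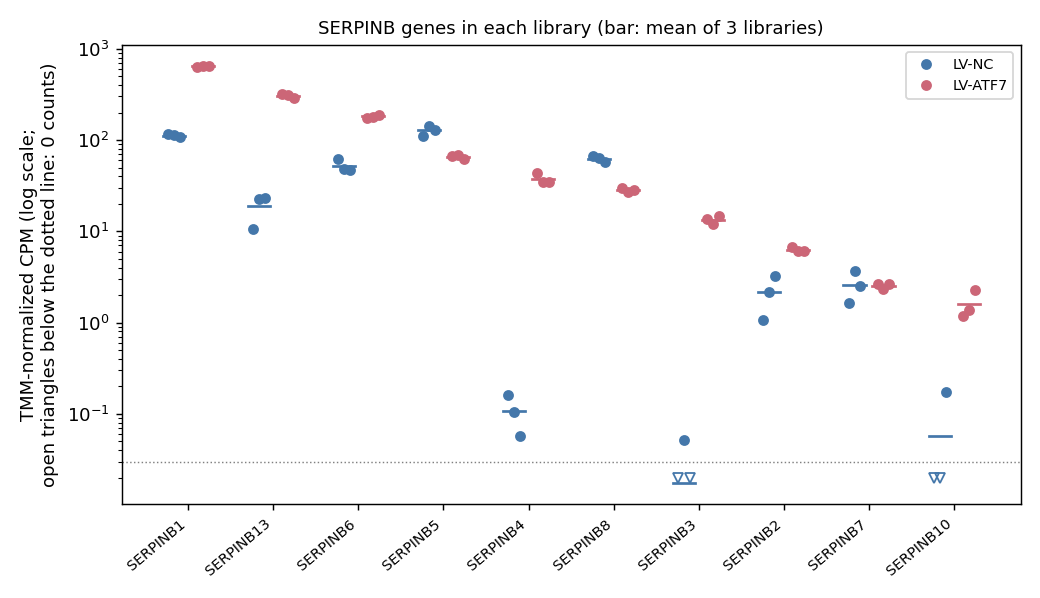
TMM-normalized CPM (log axis) of each SERPINB gene in the 3 libraries of each label, with the mean as a bar and libraries with 0 counts as open triangles below the dotted line. SERPINB1, SERPINB13 and SERPINB6 lie higher and SERPINB5 and SERPINB8 lower under the LV-ATF7 label, SERPINB3, SERPINB4 and SERPINB10 are near 0 under the LV-NC label, and the points of SERPINB7 overlap.

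Inhibitors of cysteine cathepsins included the largest tested change among the well-covered members. SERPINB13, also called headpin or hurpin, inhibits cathepsins L and K and is expressed in stratified epithelium. It was measured at 10.5, 22.8 and 23.0 CPM under the LV-NC label and at 315, 311 and 286 CPM under the LV-ATF7 label. The groups stood far apart, and LV-NC replicate 1 had less than 50% of the level of its 2 partners. The log2 fold change was 4.02 ± 0.28 SE, a 16.2-fold difference (adjusted p = 1.20e-05), and ranged from 3.71 to 4.16 when each library was left out in turn. Of the cathepsins it inhibits, CTSL had a log2 fold change of -0.31 ± 0.13 (adjusted p = 0.0612) and CTSK one of 0.05 ± 0.25 (adjusted p = 0.858), so neither passed. The call on CTSL depended on the fit, since it passed in 6 of 14 alternatives, among them that without LV-NC replicate 1 (-0.45, adjusted p = 9.38e-06), and its adjusted p ran from 4.25e-06 to 0.152. CTSK passed in 1 of 14, voom with sample quality weights (0.37, adjusted p = 0.0468). Both cathepsins are named here after their values were seen.

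SERPINB1 and SERPINB6, which lie together on chromosome 6 and restrain serine proteases of granules, were both higher under the LV-ATF7 label. SERPINB1 inhibits neutrophil elastase, proteinase 3 and cathepsin G. Its level was 116, 112 and 107 CPM under the LV-NC label and 630, 655 and 654 CPM under the LV-ATF7 label, a log2 fold change of 2.53 ± 0.09 SE (5.79-fold, adjusted p = 9.77e-07). The 3 libraries of each label lay within a narrow range. SERPINB6, which inhibits cathepsin G and trypsin-like enzymes, was measured at 62.3, 48.1 and 47.0 CPM against 176, 179 and 189 CPM. Its log2 fold change was 1.79 ± 0.13 SE (3.46-fold, adjusted p = 1.23e-05), and LV-NC replicate 1 was the highest of its label. The enzymes of neutrophil and mast cell granules that these serpins inhibit (ELANE, PRTN3, CTSG and CMA1) were not analyzed here, since none had a row.

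SERPINB2, also called plasminogen activator inhibitor 2, inhibits urokinase and tissue plasminogen activator and is induced in stressed and inflamed keratinocytes. It was low in all libraries, at 1.07, 2.15 and 3.24 CPM (20, 41 and 56 counts) under the LV-NC label and 6.70, 6.17 and 6.08 CPM (120, 121 and 110 counts) under the LV-ATF7 label. The LV-NC-labeled libraries spread over a 3-fold range but stayed below the lowest LV-ATF7-labeled one. The log2 fold change was 1.56 ± 0.34 SE (2.94-fold, adjusted p = 0.00389). SERPINB2 shares 19.9% of its exon bases with SERPINB10 on the same strand. Of its target proteases, PLAT, the gene of tissue plasminogen activator, was at 15.8, 17.6 and 15.6 CPM against 700, 702 and 753 CPM (log2 fold change 5.46 ± 0.11, adjusted p = 4.97e-07). PLAU, the urokinase gene, named after its values were seen, was at 60.2, 66.1 and 62.0 CPM against 562, 556 and 605 CPM (log2 fold change 3.19 ± 0.10, adjusted p = 7.90e-07).

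SERPINB8 and SERPINB5 were the 2 members that fell. SERPINB8, an inhibitor of the proprotein convertase furin, was measured at 66.4, 63.1 and 57.9 CPM under the LV-NC label and at 29.6, 27.1 and 28.6 CPM under the LV-ATF7 label, a log2 fold change of -1.14 ± 0.10 SE (adjusted p = 3.12e-05). FURIN itself, named after its values were seen, was also lower, with a log2 fold change of -0.50 ± 0.08 (adjusted p = 9.55e-04). SERPINB5, or maspin, does not inhibit proteases and is known as a tumor suppressor of epithelial cells. Its level was 112, 142 and 130 CPM against 66.6, 67.7 and 62.0 CPM, a log2 fold change of -0.97 ± 0.11 SE (adjusted p = 1.34e-04). Neither gene's groups overlapped.

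SERPINB7, or megsin, whose loss causes the Nagashima type of palmoplantar keratosis, did not pass the test. It was measured at 1.66, 3.67 and 2.49 CPM under the LV-NC label and at 2.62, 2.34 and 2.65 CPM under the LV-ATF7 label, so all the LV-ATF7-labeled values lay inside the range of the others. The log2 fold change was -0.04 ± 0.30 SE with a 95% interval of -0.73 to 0.65 (adjusted p = 0.916), which leaves room for a change of more than 1.5-fold either way. SERPINB10, or bomapin, known mainly from blood cells, was at the edge of detection, with 0, 0 and 3 counts under the LV-NC label and 21, 27 and 41 counts under the LV-ATF7 label. Its fitted log2 fold change of 4.71 ± 0.76 (adjusted p = 8.44e-04) depends on how the 0 counts are treated. SERPINB10 passed the filter only through the LV-ATF7-labeled libraries, so this p-value is given as a description and not as support. The ratio of the summed counts was 29.4 (3 against 89 counts, exact 95% interval 9.72 to 145). SERPINB10 had the fewest counts of the members, 92 over the 6 libraries, where the least covered gene of the table had 51. Of its exon bases, 20.3% are shared with SERPINB2 on the same strand, and how reads from shared bases were counted is not stated.

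All the members lie in 2 clusters, and the direction was not shared along the larger one. On chromosome 18 (63476761 to 64019779 of GRCh38, GENCODE release 29) the order is SERPINB5, SERPINB12, SERPINB13, SERPINB4, SERPINB11, SERPINB3, SERPINB7, SERPINB2, SERPINB10 and SERPINB8. The members that fell, SERPINB5 and SERPINB8, are the first and the last of this run, and those that were higher, together with SERPINB7, lie between them. SERPINB3 and SERPINB4 are on the minus strand and the others on the plus strand. On chromosome 6 (2832332 to 2972165) SERPINB1, SERPINB9 and SERPINB6 are all on the minus strand. Of the protein-coding neighbors within 1 Mb, 16 had rows and 14 of them passed the test, 8 higher and 6 lower (87.5%, beside 67.6% of all genes). Next to SERPINB5, VPS4B, which encodes an ATPase that disassembles ESCRT-III, fell with a log2 fold change of -0.62 ± 0.11 (adjusted p = 0.00171). Next to SERPINB1, WRNIP1, which encodes a DNA repair ATPase, was higher, at 0.54 ± 0.09 (adjusted p = 8.26e-04). Next to SERPINB6, NQO2, which encodes a quinone reductase, was lower, at -1.71 ± 0.20 (adjusted p = 1.54e-04), opposite in sign to SERPINB6. HMSD, between SERPINB10 and SERPINB8, had no row.

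**Figure D2:**
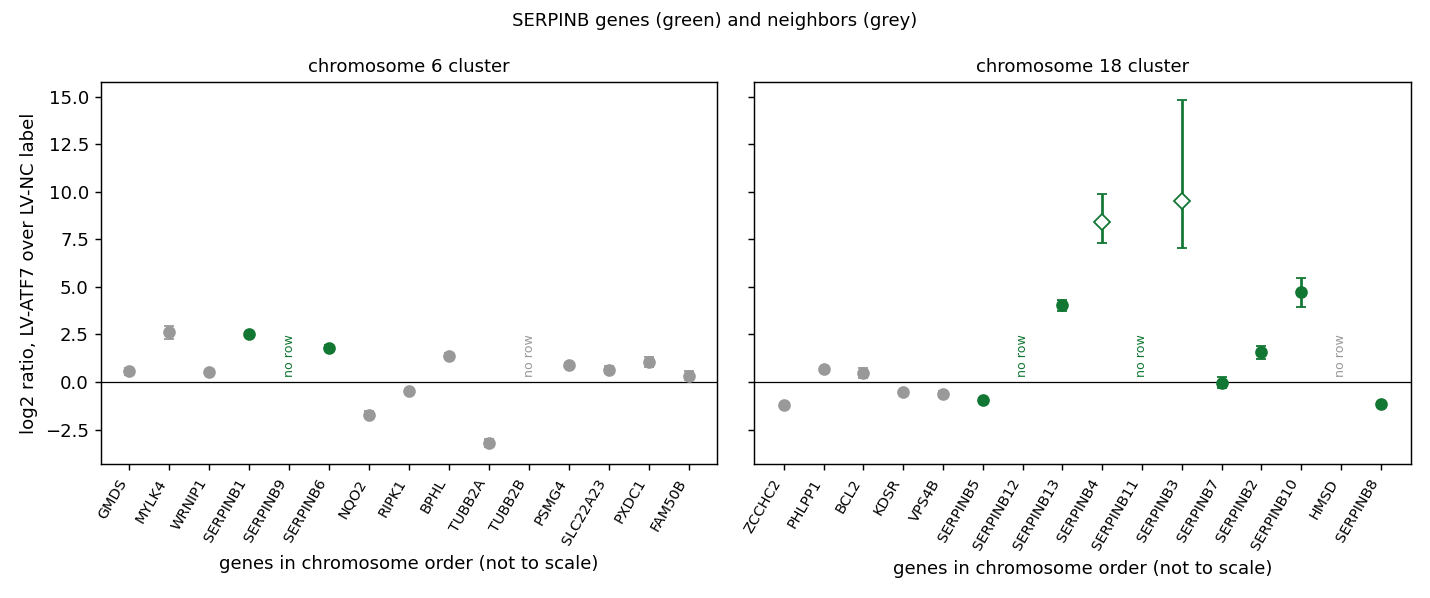
Log2 ratio of the LV-ATF7-labeled over the LV-NC-labeled libraries for SERPINB genes (green) and neighbors (grey) in chromosome order, which is not to scale. Circles are fitted log2 fold changes with standard errors, open diamonds are ratios of summed counts with exact 95% counting intervals, and "no row" marks genes outside the table. SERPINB5 and SERPINB8, at the 2 ends of the chromosome 18 cluster, lie below 0, and SERPINB3 and SERPINB4 lie highest.

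The family's total and its make-up both differed between the labels, which is given here as a description. The 10 members summed to 378 ± 13.8 CPM (SD, n = 3) in the LV-NC-labeled libraries and to 1287 ± 8.82 CPM in the LV-ATF7-labeled ones, with ranges of 370 to 394 and 1280 to 1297 CPM. As a share of the family's counts, SERPINB5 made up 33.8% ± 3.13 under the LV-NC label and 5.08% ± 0.205 under the LV-ATF7 label. The share of SERPINB1 was 29.5% ± 1.57 against 50.2% ± 1.07, and that of SERPINB13 was 4.94% ± 1.82 against 23.6% ± 1.13. SERPINB6 kept a similar share of 13.9% ± 2.57 against 14.1% ± 0.553. The share of SERPINB8 was 16.5% ± 1.26 against 2.21% ± 0.112. SERPINB3 and SERPINB4, for all their relative change, reached only 1.05% ± 0.118 and 2.92% ± 0.379 of the family's counts.

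**Figure D3:**
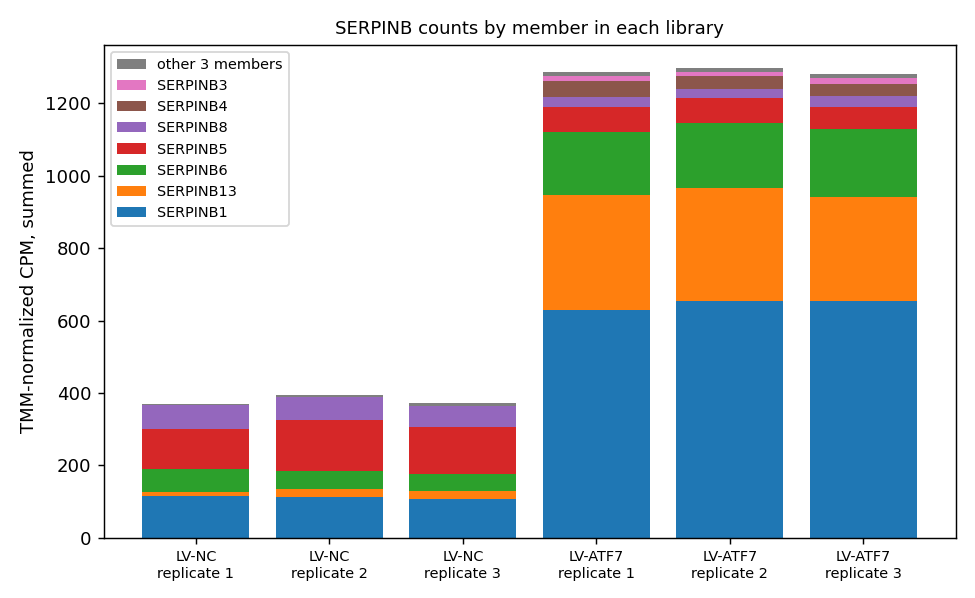
TMM-normalized CPM of the SERPINB genes stacked by member in each of the 6 libraries. The LV-NC-labeled libraries total 370 to 394 CPM and the LV-ATF7-labeled ones 1280 to 1297 CPM, and SERPINB1 and SERPINB13 fill most of the higher bars.

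Levels of different genes were compared per kilobase of exon, counting each exon base once. Under the LV-NC label SERPINB1 (36.1 ± 1.47 CPM per kb, SD, n = 3) and SERPINB5 (32.5 ± 3.87) stood highest and overlapped in range. SERPINB8 followed at 10.6 ± 0.731 CPM per kb, and SERPINB13 (4.14 ± 1.57) and SERPINB6 (3.97 ± 0.648) came next and overlapped. SERPINB7 (0.988 ± 0.383) and SERPINB2 (0.784 ± 0.395) overlapped below them, and SERPINB4, SERPINB10 and SERPINB3 were last, at or under 0.0535 CPM per kb and not separable. Under the LV-ATF7 label each member's range lay above the next one's. SERPINB1 led at 209 ± 4.58 CPM per kb, above 99.0% of the genes with a known length. SERPINB13 followed at 67.1 ± 3.49, SERPINB4 at 18.6 ± 2.39, SERPINB5 at 16.6 ± 0.765, SERPINB6 at 13.7 ± 0.479, SERPINB3 at 7.58 ± 0.803 and SERPINB8 at 4.85 ± 0.220 CPM per kb. SERPINB2 (2.30 ± 0.121), SERPINB7 (0.964 ± 0.0647) and SERPINB10 (0.595 ± 0.216) closed the order. The order depends on the length used, most of all for SERPINB6, since its exons span 13201 bases in all but its principal transcript, taken as the one with the longest coding sequence, has 1566 bases. Per kilobase of the principal transcript SERPINB6 stood at rank 3 under the LV-NC label, at 33.5 ± 5.46 CPM per kb, and at rank 2 under the LV-ATF7 label, at 116 ± 4.03. By that length SERPINB5 stood above SERPINB4 under the LV-ATF7 label (23.5 against 21.5 CPM per kb) and above SERPINB1 under the LV-NC label (46.0 against 42.6), each time with ranges that overlapped. The deposited FPKM put SERPINB5 above both in the same way, again with overlap.

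The genes whose profile over the 6 libraries was nearest to SERPINB4, by Euclidean distance of centered log2 CPM, were CCL2 (0.525), SNCAIP (0.787), SEMA5B (0.994), S100A7 (1.02) and SERPINB3 (1.12). CCL2 encodes a monocyte chemoattractant and S100A7 encodes psoriasin, an antimicrobial protein of inflamed epidermis. Nearest to SERPINB2 were PADI1 (0.333), UHRF1 (0.382), ASB9 (0.386), RMI2 (0.407) and ERFE (0.413), of which PADI1 encodes an epidermal enzyme that citrullinates proteins. These distances describe 6 libraries that fall into 2 groups, so any gene with a like difference between labels and a like LV-NC replicate 1 comes near.

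Serpins of the other clades changed in both directions. Of the 23 listed, 9 had rows and 8 passed the test, 5 higher and 3 lower (88.9%, beside 67.6% of all genes), with a median log2 fold change of 1.08, beside 0.00 for all genes tested. SERPINI1, which encodes neuroserpin, fell from 33.9, 53.6 and 50.4 CPM to 1.06, 1.02 and 0.664 CPM (log2 fold change -5.64 ± 0.26, adjusted p = 2.20e-06). SERPINF2, the gene of alpha-2-antiplasmin, was higher at 25.4, 24.3 and 26.4 CPM against 1.34, 3.25 and 2.89 CPM (3.34 ± 0.28, adjusted p = 2.69e-05). SERPINA1, the gene of alpha-1-antitrypsin, was higher too, at 9.71, 12.3 and 12.7 CPM against 2.09, 0.891 and 0.521 CPM (3.29 ± 0.40, adjusted p = 1.78e-04). It had few counts under the LV-NC label, so this p-value is given as a description.

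Among 20 listed proteases that SERPINB proteins or their relatives act on or meet in skin, 13 had rows and 9 passed, 6 higher and 3 lower (69.2%, beside 67.6% of all genes), with a median log2 fold change of 0.05. Apart from PLAT, the largest change was in a cathepsin. CTSS, a cysteine cathepsin that SERPINB3 inhibits, was at 2.78, 0.734 and 1.51 CPM against 25.8, 26.9 and 29.7 CPM (log2 fold change 4.03 ± 0.37, adjusted p = 4.08e-05). CTSV, a cathepsin L relative of epithelium, was at 12.8, 26.8 and 27.8 CPM against 1.84, 2.40 and 2.93 CPM (-3.23 ± 0.34, adjusted p = 8.34e-05). A pair of cysteine cathepsins thus moved in opposite directions. The change of CTSV was close in size to those of KLK7 (3.20 ± 0.31) and PLAU (3.19 ± 0.10).

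Of 18 listed factors and receptors known to act on SERPINB genes or on keratinocyte genes of this kind, 17 had rows and 13 passed, 9 higher and 4 lower (76.5%, beside 67.6%), with a median log2 fold change of 0.34. TP63, the master factor of stratified epithelium, was at 18.3, 12.6 and 15.7 CPM against 238, 237 and 219 CPM (log2 fold change 3.90 ± 0.15, adjusted p = 1.18e-06). STAT6, which carries IL-4 and IL-13 signals, was at 52.1, 52.6 and 49.0 CPM against 360, 369 and 392 CPM (2.86 ± 0.09, adjusted p = 8.04e-07). FOSL1, an AP-1 subunit, was at 73.8, 158 and 153 CPM against 29.03, 34.2 and 36.6 CPM (-1.95 ± 0.28, adjusted p = 4.11e-04). These 3 genes were named for the size of their change, and their groups did not overlap. The same held for 13 of the 17 listed genes with rows, beside 72.7% of all genes tested. The part of these factors in the results on SERPINB genes was not tested.

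**Figure D4:**
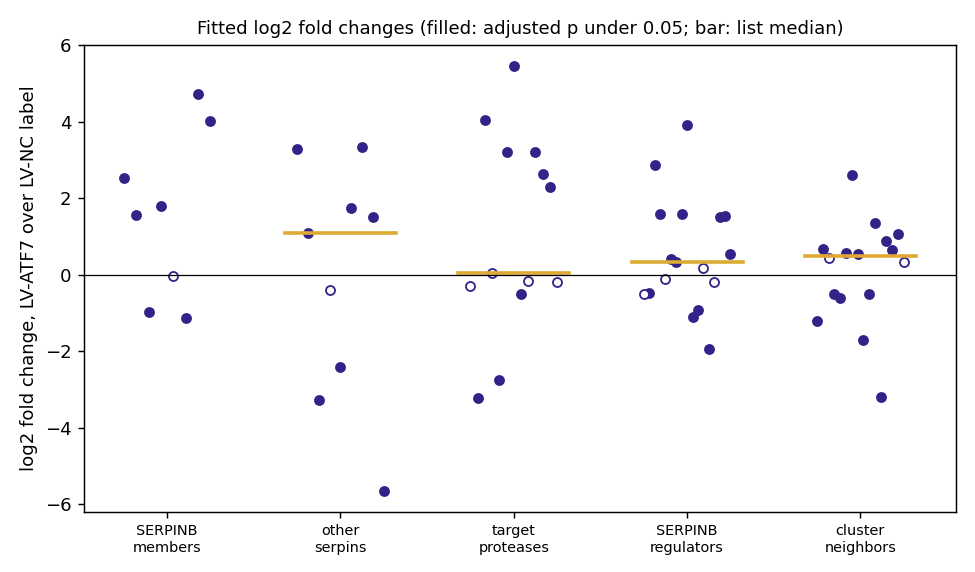
Fitted log2 fold changes of the 8 tested SERPINB members and of the genes of each list, filled where the adjusted p was under 0.05, with the median of each list as a bar. All 4 lists hold genes on both sides of 0, with list medians from 0.05 to 1.08.

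The promoter windows of the members were searched on both strands for the letters of 4 motifs. RefSeq windows were found for 9 of the 10 members, 14 windows in all, and none for SERPINB10. The full CRE, TGACGTCA, the element bound by CREB/ATF proteins, was in none of the 14 and in 1.85% of all 35116 windows. The AP-1 letters TGANTCA were in the windows of 5 members, SERPINB2, SERPINB5, SERPINB7, SERPINB8 and SERPINB13 (6 of 14 windows), and in 7.71% of all windows. The STAT letters TTCNNNGAA were in those of SERPINB1, SERPINB7 and SERPINB8 (3 of 14 windows), and in 7.66% of all windows. The STAT6 letters, TTC and GAA with 4 bases between them, were in none of the 14 and in 6.44% of all windows. SERPINB3, SERPINB4 and SERPINB6 matched none of the 4 motifs. An AP-1 match of each of 2 members that were higher and of the 2 that were lower is shown with the match in capitals, from GRCh38.p14, to set members of both directions side by side. SERPINB7, which did not pass the test, also had AP-1 matches, which are not shown. For SERPINB8 the match nearer to the start is given, and another begins 185 bases before it.
SERPINB13, chr18:63587236-63587282, plus strand: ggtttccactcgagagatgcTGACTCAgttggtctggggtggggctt
SERPINB2, chr18:63887583-63887629, plus strand: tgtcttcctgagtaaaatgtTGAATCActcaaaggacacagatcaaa
SERPINB5, chr18:63476792-63476838, plus strand: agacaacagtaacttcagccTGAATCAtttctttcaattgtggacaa
SERPINB8, chr18:63970033-63970079, plus strand: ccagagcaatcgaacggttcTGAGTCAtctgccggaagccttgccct
These begin 87, 102, 146 and 28 bases before the transcription start in that order.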

How the data were processed

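RNA-seq was analyzed from 6 libraries, grouped by their labels into LV-NC and LV-ATF7. The authors captured mRNA on oligo(dT) beads and sequenced it on an Illumina NovaSeq instrument. They deposited raw read counts per gene, and the build GRCh38 is from the submitters' processing notes. The aligner, counting program, annotation and strandedness are not given in the sources used here. The authors also deposited FPKM values, used here only as an alternative for the order of levels. The deposited fold changes (a ratio and a log2 value per gene) and the deposited p-values are the authors' own comparison and were not used.

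After TMM scaling, the quasi-likelihood test of edgeR 4.0.16 (R 4.3.3) was run on the counts over the 12462 genes that passed filterByExpr, with Benjamini-Hochberg adjustment and a threshold of 0.05. Log2 fold changes are of LV-ATF7 over LV-NC as labeled. Standard errors were taken from the F statistic. Total counts of 16686472 to 20562768 per library make counting error small except for SERPINB2, SERPINB7, SERPINB10 and, under the LV-NC label, SERPINB3 and SERPINB4. Libraries of a label differed by more than sampling noise. The chi-square per gene was 67.0 and 74.7 for the 2 pairs with LV-NC replicate 1, and 2.84 to 10.4 for the other pairs within a label. GENCODE release 29 gave the positions and exon lengths of 12485 genes, found by their identifiers. Promoter windows are from RefSeq, GRCh38.p14, and sequences of proteins were not used here.

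The members and the lists were chosen with earlier results of these data known. Besides all SERPINB rows and ATF7, the genes named are the 3 called genes of each list with the largest change and a mean of at least 50 counts, the neighbors next to a called member, and the 5 nearest profiles to SERPINB4 and to SERPINB2 (log2 CPM, prior count 2). CTSL, CTSK, PLAU, FURIN, SERPINF1, SERPINH1, KLK5, KLK7, KLK8, CASP1, CASP4 and the cell type markers are named outside this rule. Same-numbered libraries deviated together only weakly (correlations 0.06, -0.02 and 0.07), so the numbers were not taken to pair them. Alternatives were DESeq2 1.42.0, its size factors in edgeR, library size only, dropping the filter or asking for 10 counts in each library, voom of limma 3.58.1 with weights for sample quality, a block for the replicate number, leaving out each library, SERPINB3 and SERPINB4 summed, the deposited FPKM and, chosen after seeing the data, the length of the principal transcript. The fits were also run on simulated data in which few genes differed and no library stood apart. These data differ on both points, so that run does not show how often calls are wrong here. Scripts also used Python 3.11.15.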

Additional observations from a re-analysis of the deposited data

How the results depend on the processing

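The 7 members that passed the test kept their direction and their side of the threshold under every alternative in which they were tested. With at least 10 counts in every library SERPINB10 was not tested, and 6 of the remaining 7 passed. SERPINB7 did not pass under any alternative, and its sign turned: its log2 fold change was 0.011 with the replicate block and ran from -0.31 to 0.26 with each library left out. The replicate block, tried although the numbers do not show a pairing, changed no other member's call. The fitted log2 fold change of SERPINB10 ran from 4.12 (without LV-NC replicate 2) to 7.89 (without LV-NC replicate 3, which held all its LV-NC counts), and was 4.15 without LV-NC replicate 1. Scaling by library size alone moved the median of all tested genes by -0.16 (log2), and put SERPINB3 plus SERPINB4 at 278 times the level of 3 counts per library, against 311 with TMM and 294 to 324 with each library left out. Of the other serpins, 5 of the 6 with at least 10 counts in every library passed, because fewer genes were tested. Of the listed proteases, 8 to 12 passed under the alternatives. In the order of levels, 6 of the 10 members kept their rank under the LV-NC label with the deposited FPKM and 5 with the length of the principal transcript, which was chosen after seeing the data, and 6 to 10 did so with each library left out. Under the LV-ATF7 label the numbers were 6 and 5, and 10 with each library left out. The deposited FPKM rests on lengths with a median of 2.61 times the exons counted once. Depth limits what can be said of SERPINB7 and SERPINB10 in all libraries, and of SERPINB3 and SERPINB4 under the LV-NC label, where 3 counts correspond to 0.157 to 0.174 CPM.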

Other observations

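Other serpins that changed include some named here after their values were seen. SERPINF1, the gene of pigment epithelium-derived factor, was higher in the LV-ATF7-labeled libraries, with a log2 fold change of 1.73 ± 0.17 (adjusted p = 5.92e-05 by edgeR's quasi-likelihood test), and SERPINH1, which encodes a collagen chaperone, was higher at 1.51 ± 0.09 (adjusted p = 6.57e-06).

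Of the 3 listed kallikreins of the skin barrier, 2 passed the test, a share near that of all genes (67.6%), and they too are named after their values were seen. KLK7 was at 0.428, 0.839 and 0.347 CPM against 5.14, 5.10 and 4.87 CPM (log2 fold change 3.20 ± 0.31, adjusted p = 5.53e-05). Its counts under the LV-NC label were few, so this p-value is given as a description. KLK8 was higher at 2.63 ± 0.20 (adjusted p = 1.53e-05). KLK5 did not pass, at -0.18 ± 0.19 (adjusted p = 0.428). Of the inflammatory caspases, CASP1 was higher at 2.28 ± 0.33 (adjusted p = 4.62e-04) and CASP4, also named after its values were seen, did not pass, at -0.20 ± 0.15 (adjusted p = 0.263).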
